A study of Mus musculus with 10 samples.

Results

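The genes described here were grouped as the constitutive protein-folding machinery of the cell. They are those of the cytosolic chaperonin TRiC, its partner prefoldin, and the J-domain proteins of classes A, B and C. With them are the Hsp70, Hsp110, Hsp90 and mitochondrial chaperones and co-chaperones. All were chosen by gene symbol, so a member need not be constitutive, or expressed, in these neurons. The symbols taken were those of the J-domain, Cct and prefoldin series, together with 11 further names such as Hspa8, Hspd1 and Stip1, and 6 J-domain genes of the heat shock and endoplasmic reticulum responses were left out. This gave 59 genes of the 22180 measured through a probe set with 1 symbol: 10 TRiC genes, 4 prefoldin genes, 36 J-domain genes (3 of class A, 8 of class B and 25 of class C), 4 Hsp70 and Hsp110 genes, the mitochondrial Hsp60 and Hsp10 genes, and 3 genes of Hsp90 and its co-chaperones. No probe set carried the symbol Hsp90ab1, and Dnajb8, Dnajc17, Dnajc19, Dnajc19-ps and Pfdn4 were read by probe sets with several symbols, so they are not analysed here.

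The study measured RNA of cultured mouse cortical neurons on Affymetrix arrays whose probes are spread over the whole of each transcript. Neurons came from the cortex of embryos of day 14.5 to 15.5 that were ATF4 deficient or wildtype. ATF4 is a transcription factor that stressed cells make when the integrated stress response slows general protein synthesis. After 7 days in culture the neurons received sodium arsenite at 5 µM, an arsenic compound that binds protein thiols, or vehicle, for 12 hours. The groups were ATF4-deficient neurons with arsenite (2 arrays), ATF4-deficient neurons with vehicle (2 arrays), wildtype neurons with arsenite (4 arrays) and wildtype neurons with vehicle (2 arrays). The labels do not say how the gene was made deficient, what the strain was or whether replicates came from separate embryos or cultures, so the spread behind each p-value is that of these arrays and may be technical.

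Chaperones bind proteins that are not yet folded or have lost their fold. Hsp70 proteins do so in cycles driven by ATP, and J-domain proteins bring them their substrates and trigger the hydrolysis. Nucleotide exchange factors and Hsp90 take over from there. TRiC is a closed barrel of stacked rings, each built of 8 related subunits (Tcp1, Cct2, Cct3, Cct4, Cct5, Cct6a, Cct7 and Cct8), inside which actin and tubulin fold, and prefoldin hands it newly made chains. Neurons keep large amounts of tubulin, actin and recycling synaptic vesicles, and several J-domain proteins, among them the cysteine string protein Dnajc5 and the auxilin Dnajc6, act at their synapses. Arsenite is a classical inducer of the heat shock response, in which heat shock factors bind repeats of the unit GAA in promoters.

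All values are on the log2 scale of robust multiarray average (RMA) signals, which the authors deposited, so a difference of 1 is a doubling of signal. Olfactory and vomeronasal receptor genes served as a dim level, and 90% of them lay below 6.63. Of the 59 genes, 52 had a mean above it, and Dnajb13, Dnajb7, Dnajc24, Dnajc5b, Dnajc5g, Cct6b and Cct8l1 did not. Atf4 itself was at 7.54 and 7.70 in ATF4-deficient arsenite arrays and 7.65 and 7.48 in ATF4-deficient vehicle arrays, against 9.43, 9.80, 9.64 and 9.91 in wildtype arsenite arrays and 9.09 and 9.56 in wildtype vehicle arrays, so every array matched its genotype label. Array medians lay between 7.00 and 7.09. ATF4-deficient arsenite replicate 2 stood apart, with a score of 29.4 on principal component 1, where the other arrays lay between -18.2 and 8.70. It held the highest value of the 10 arrays for 25 of the 59 chaperone genes (42.4%), against 14.3% of all genes, and several results are also given without it. The mean level of 10 neuron markers lay between 10.7 and 11.0 on every array.

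The promoters of these genes were read for short motifs, to set the deposited values beside the sequence. RefSeq's GRCm38.p6 annotation gave a window from 250 bases before to 50 bases after the start for 46 of the 59 genes. Motifs were searched on both strands. The heat shock element of 3 units, in which GAA and its complement TTC alternate with 2 free bases between units, was present in 3 of the 46, namely Hspd1, Hspe1 and Dnajb6 (6.52%), against 0.662% of the 27025 genes with a window. The element of 2 units (GAANNTTC or TTCNNGAA), which the longer one contains, was present in 11 of 46 (23.9%), against 17.0% of all genes. These 11 included Cct2, Cct5, Cct6a and Cct8l1 of TRiC. The CARE sequence TGATGNAA, to which ATF4 dimers are known to bind, was present in 1 of the 46, Hspa14, against 4.51% of all genes, and the CCAAT box (CCAAT or ATTGG) in 17 of 46 (37.0%), against 41.1%. The stretches below are printed 5′ to 3′ on the gene's own strand, with the matches in capitals, for the genes whose values are described most closely: the shared promoter of the mitochondrial pair, the J-domain gene with the long element, TRiC subunits with the short one, and Stip1 with its CCAAT boxes. A match is a description of the letters in the window and says nothing of binding.
Hspe1: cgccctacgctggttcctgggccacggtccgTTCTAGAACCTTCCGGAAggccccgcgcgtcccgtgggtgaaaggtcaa
Dnajb6: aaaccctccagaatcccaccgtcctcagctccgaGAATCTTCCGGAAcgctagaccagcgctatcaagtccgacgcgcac
Cct2: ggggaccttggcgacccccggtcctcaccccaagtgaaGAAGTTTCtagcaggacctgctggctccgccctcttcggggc
Cct5: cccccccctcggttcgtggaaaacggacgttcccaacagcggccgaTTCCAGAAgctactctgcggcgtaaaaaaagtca
Stip1: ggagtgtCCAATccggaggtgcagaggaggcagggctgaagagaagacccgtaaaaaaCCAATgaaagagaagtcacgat
The Hspe1 stretch is chr1:55088028-55088107, plus strand, which is -120 to -41 relative to the Hspe1 start. Hspd1 begins on the other strand, and the same bases lie upstream of its start too, so the genes of the pair face away from a shared stretch of overlapping matches. The Dnajb6 stretch is chr5:29735818-29735897 on the plus strand. The Cct2 stretch is chr10:117063376-117063455, the Cct5 stretch chr15:31601847-31601926 and the Stip1 stretch chr19:7040077-7040156, each on the minus strand and upstream of the gene's start.

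Among the Hsp70 genes, Hspa8 rose with arsenite. Hspa8 encodes Hsc70, the constitutive cytosolic Hsp70 that folds new proteins and strips clathrin from vesicles. It had 12.92 and 13.00 in ATF4-deficient arsenite arrays against 12.71 and 12.67 in ATF4-deficient vehicle arrays, and 12.86, 12.95, 12.88 and 12.84 in wildtype arsenite arrays against 12.61 and 12.63 in wildtype vehicle arrays. All 6 arsenite arrays lay above all 4 vehicle arrays. By a looser criterion, arsenite arrays above vehicle arrays within each genotype, 3.64% of all genes were separated. Averaged over the genotypes the difference was 0.27 (SE 0.06), a 1.20-fold rise (limma, adjusted p = 0.0364), and the ATF4-deficient and wildtype differences were 0.27 and 0.26 (adjusted p = 0.229 and 0.207). With each of the 10 arrays left out in turn the estimate stayed between 0.25 and 0.29, while the adjusted p ran from 0.0477, without wildtype arsenite replicate 4, to 0.121, without wildtype vehicle replicate 1, and passed the threshold in 1 of the 10 fits. It was 0.25 (adjusted p = 0.114) without ATF4-deficient arsenite replicate 2. The probe set that stands for the gene is the brightest of 4 with this symbol, and the other three gave larger differences with larger errors (0.87, 0.84 and 0.63, SE 0.22, 0.22 and 0.19, adjusted p = 0.0647, 0.0747 and 0.112). The first of these others had 10.46 and 11.41 in ATF4-deficient arsenite arrays against 9.64 and 10.17 in ATF4-deficient vehicle arrays, and 10.01, 10.70, 10.10 and 10.32 in wildtype arsenite arrays against 9.23 and 9.92 in wildtype vehicle arrays. Whether they read Hspa8 itself or near-identical copies was not tested.

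Hspa9, the mitochondrial Hsp70 (mortalin) that pulls proteins through the inner membrane, had the largest arsenite difference of the set in wildtype neurons. Its values were 10.99 and 11.32 in ATF4-deficient arsenite arrays against 10.79 and 10.93 in ATF4-deficient vehicle arrays, and 11.23, 11.77, 11.60 and 11.36 in wildtype arsenite arrays against 10.87 and 11.01 in wildtype vehicle arrays. Arsenite arrays lay above vehicle arrays in both genotypes without overlap. The difference did not pass the threshold in ATF4-deficient neurons (0.30, SE 0.17, adjusted p = 0.555), in wildtype neurons (0.55, SE 0.15, adjusted p = 0.168) or averaged (0.42, SE 0.11, adjusted p = 0.0767), and the averaged one passed without wildtype arsenite replicate 1 (adjusted p = 0.0487). Without ATF4-deficient arsenite replicate 2 it was 0.13 in ATF4-deficient neurons (adjusted p = 0.942) and 0.34 averaged (adjusted p = 0.242). Hspa4, an Hsp110 protein that exchanges the nucleotide of Hsp70, was at -0.03 in ATF4-deficient and -0.11 in wildtype neurons, and Hspa14, the ribosome-associated Hsp70, at 0.17 and -0.06, with groups that overlapped in wildtype.

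Stip1, which encodes Hop, the adaptor that passes substrates from Hsp70 to Hsp90, was the other gene that rose with arsenite. It had 10.49 and 10.85 in ATF4-deficient arsenite arrays against 10.04 and 10.10 in ATF4-deficient vehicle arrays, and 10.23, 10.69, 10.49 and 10.21 in wildtype arsenite arrays against 9.98 and 10.08 in wildtype vehicle arrays. Arsenite arrays again all lay above vehicle arrays, and they spread more widely (SD 0.26, n = 2, and 0.23, n = 4, against 0.04 and 0.07, n = 2 each). The averaged difference was 0.48 (SE 0.11), a 1.40-fold rise (limma, adjusted p = 0.0403). It was 0.39 (adjusted p = 0.143) without ATF4-deficient arsenite replicate 2, and passed in 3 of the 10 fits with an array left out, those without wildtype arsenite replicates 1 or 4 or ATF4-deficient arsenite replicate 1. Within ATF4-deficient neurons it was 0.60 (SE 0.17, adjusted p = 0.144) and within wildtype 0.37 (SE 0.14, adjusted p = 0.351).

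Hsp90aa1, the stress-responsive form of cytosolic Hsp90, was at 9.33 and 9.46 in ATF4-deficient arsenite arrays, 9.22 and 9.15 in ATF4-deficient vehicle arrays, 9.09, 9.17, 9.21 and 9.22 in wildtype arsenite arrays and 9.13 and 8.93 in wildtype vehicle arrays. Its averaged arsenite difference was 0.18 (SE 0.07, adjusted p = 0.227), with groups that overlapped in wildtype. Between genotypes it was the one Hsp90 gene with genotypes kept apart under both treatments, ATF4-deficient above wildtype, by 0.22 under arsenite and 0.16 under vehicle (adjusted p = 0.355 and 0.659). Taken singly, 10.6% of all genes were so separated under arsenite and 21.2% under vehicle. Ahsa1, the activator of the Hsp90 ATPase, was at 0.20 with arsenite in ATF4-deficient neurons (adjusted p = 0.477), and in wildtype neurons the interval of its difference ran from -0.20 to 0.19. Both wildtype vehicle arrays held the same value for Ahsa1, 8.41.

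**Figure D1:**
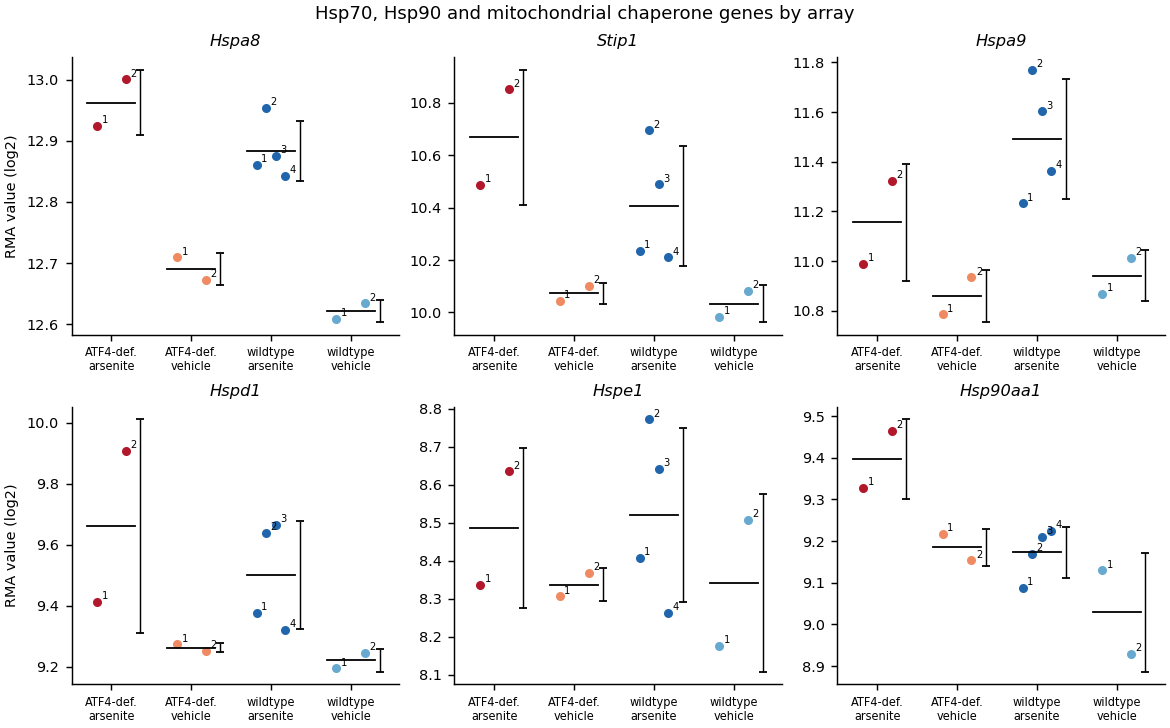
RMA values (log2) of Hspa8, Stip1, Hspa9, Hspd1, Hspe1 and Hsp90aa1 on each of the 10 arrays, by group. Points are arrays with their replicate number, long bars are group means and brackets are 1 SD (n = 2, or 4 for wildtype arsenite). Hspa8, Stip1, Hspa9 and Hspd1 are higher on every arsenite array than on the vehicle arrays of the same genotype, and Hspe1 is not.

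The mitochondrial chamber of Hsp60 (Hspd1) and its lid Hsp10 (Hspe1), which share the promoter shown above, both had higher means with arsenite in each genotype, and the arrays separated for Hspd1. Hspd1 had 9.41 and 9.91 in ATF4-deficient arsenite arrays against 9.27 and 9.25 in ATF4-deficient vehicle arrays, and 9.38, 9.64, 9.66 and 9.32 in wildtype arsenite arrays against 9.19 and 9.25 in wildtype vehicle arrays. Hspe1 had 8.34 and 8.64 in ATF4-deficient arsenite arrays against 8.31 and 8.37 in ATF4-deficient vehicle arrays, and 8.41, 8.77, 8.64 and 8.26 in wildtype arsenite arrays against 8.18 and 8.51 in wildtype vehicle arrays. Arsenite arrays stood above vehicle arrays for Hspd1 and overlapped them for Hspe1. Neither averaged difference passed (Hspd1 0.34, SE 0.11, adjusted p = 0.135, and Hspe1 0.16, SE 0.12, adjusted p = 0.552), and that of Hspd1 was 0.21 (adjusted p = 0.371) without ATF4-deficient arsenite replicate 2 and 0.46 (adjusted p = 0.0373) without replicate 1 of that group.

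Over the whole set, the question of the first comparisons was how arsenite moved these genes when ATF4 was lacking and when it was present. In ATF4-deficient neurons limma called 0 of the 59 genes, against 1.15% of all genes, and 11 had an unadjusted p under 0.05 (18.6%, against 12% of all genes). In wildtype neurons it also called 0, against 0.482% of all genes, and 7 had an unadjusted p under 0.05 (11.9%, against 10.9%). Among genes above the dim level these shares were 15.4% of the members and 15% of all genes in ATF4-deficient neurons. In wildtype neurons they were 13.5% and 13.6%. The median difference was 0.12 in ATF4-deficient neurons and -0.01 in wildtype neurons, beside -0.01 and -0.02 over all genes. Estimates were above 0 for 43 of the 59 in ATF4-deficient neurons (72.9%, against 47.2% of all genes) and for 28 in wildtype neurons (47.5%, against 44.9%). Without ATF4-deficient arsenite replicate 2 the count above 0 in ATF4-deficient neurons was 40 and the median was 0.08, beside 0.01 for all genes.

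Arsenite arrays lay wholly above vehicle arrays for 21 of the 59 genes in ATF4-deficient neurons, against 18.1% of all genes, and for 7 in wildtype neurons, against 7.86%. They lay wholly below for 6 genes in each genotype, against 20.7% and 12.7% of all genes. The 6 genes above in both genotypes were Dnajb3, Dnajc7, Hspa8, Hspa9, Hspd1 and Stip1, where 3.64% of all genes did so, and the 3 below in both were Dnajc16, Dnajc27 and Dnajc30, where 4.82% did. Of the 59 estimates, 24 were higher and 12 lower in both genotypes, 19 were higher in ATF4-deficient and lower in wildtype neurons, and 4 were the reverse. Averaged over the genotypes, Hspa8 and Stip1 were the 2 of 59 that passed, against 3.07% of all genes, both upward, as 1.65% of all genes were, and the median of the 59 was 0.03 beside -0.01 for all genes. An unadjusted p under 0.05 was found for 14 of the 59 there, or 23.7%, against 16.1% of all genes, and 34 estimates were above 0, or 57.6%, against 44.9%. Among genes above the dim level, 21.2% of the members and 21.2% of all genes had an unadjusted p under 0.05 there.

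**Figure D2:**
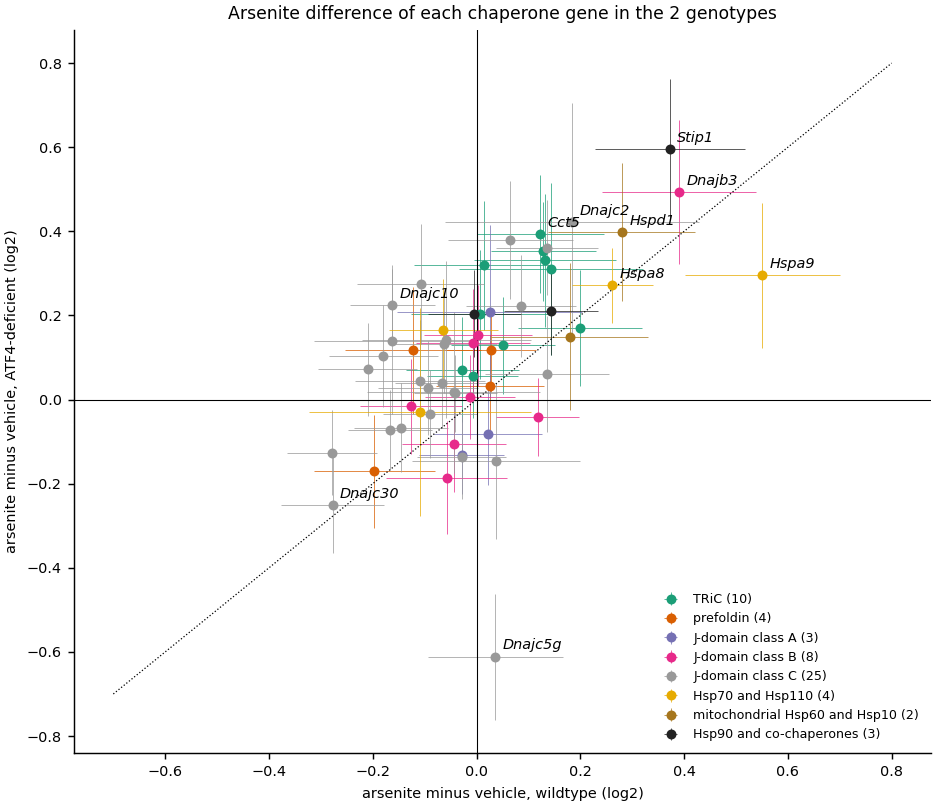
Arsenite minus vehicle difference (log2) of each of the 59 genes, in wildtype neurons (horizontal axis) and in ATF4-deficient neurons (vertical axis). Points are estimates, colours are role classes, thin lines are 1 SE and the dotted line marks equal differences. Stip1, Dnajb3, Hspd1, Hspa8 and Hspa9 lie high on both axes, and Dnajc5g lies at -0.61 in ATF4-deficient and 0.04 in wildtype neurons.

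The 8 subunits of the TRiC ring had higher means in ATF4-deficient than in wildtype neurons, under both treatments, and limma called 0 of them in any comparison, with 5 of the 8 at an unadjusted p under 0.05 between genotypes under arsenite, where 12.1% of all genes were so and 0.343% were called. Under arsenite, Cct5 had 9.32 and 9.63 in ATF4-deficient arrays against 9.10, 9.32, 9.18 and 8.92 in wildtype arrays, and under vehicle 9.06 and 9.11 against 8.94 and 9.07. Cct4 had 10.16 and 10.67 in ATF4-deficient against 9.71, 10.33, 10.14 and 9.80 in wildtype arrays under arsenite, and 10.05 and 10.15 against 9.82 and 9.88 under vehicle. The ATF4-deficient arrays stood above the wildtype arrays under vehicle for 5 of the 8, against 21.2% of all genes, and under arsenite for Cct5 alone, against 10.6%. For Cct5 the lowest ATF4-deficient and the highest wildtype array under arsenite were equal after rounding.

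Cct7 had 9.56 and 9.94 in ATF4-deficient arrays against 9.30, 9.60, 9.38 and 9.16 in wildtype arrays under arsenite, and 9.37 and 9.50 against 9.32 and 9.38 under vehicle. Cct6a had 10.96 and 11.40 against 10.66, 11.03, 10.89 and 10.69 under arsenite, and 10.80 and 10.89 against 10.74 and 10.63 under vehicle, ATF4-deficient before wildtype. For both genes wildtype arsenite replicate 2 lay above ATF4-deficient arsenite replicate 1. Cct8 had 10.41 and 10.78 in ATF4-deficient arrays against 10.11, 10.46, 10.34 and 10.06 in wildtype arrays under arsenite, and 10.35 and 10.45 against 10.29 and 10.18 under vehicle.

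The remaining ring subunits lay closer together. Tcp1 had 10.70 and 10.78 in ATF4-deficient arrays against 10.44, 10.69, 10.70 and 10.45 in wildtype arrays under arsenite, and 10.59 and 10.63 against 10.54 and 10.49 under vehicle. Cct2 had 11.11 and 11.23 against 10.83, 11.16, 11.05 and 10.85 under arsenite, and 11.15 and 11.05 against 11.06 and 10.94 under vehicle. Cct3 had 9.69 and 9.84 against 9.51, 9.85, 9.75 and 9.43 under arsenite, and 9.56 and 9.63 against 9.47 and 9.40 under vehicle. Under arsenite the genotypes overlapped for all 3, and under vehicle for Cct2 alone of them. The genotype differences of the 8 under arsenite ran from 0.13 for Cct3 to 0.42 for Cct4, with a median of 0.35, where all genes had a median of 0.02. Their adjusted p lay between 0.287 and 0.693, and their 95% intervals between -0.13 and 0.81. Under vehicle the 8 differences ran from 0.08 to 0.25 with a median of 0.13, beside 0.00 for all genes (adjusted p from 0.734 to 0.908).

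The size of the TRiC differences that involve ATF4-deficient arsenite arrays rested largely on 1 array. ATF4-deficient arsenite replicate 2 lay above ATF4-deficient arsenite replicate 1 by 0.08 to 0.51 in the 8 subunits and was the highest of all 10 arrays in 7 of them, the exception being Cct3. Without it the median genotype difference under arsenite was 0.15 in place of 0.35, the median arsenite difference in ATF4-deficient neurons was 0.09 in place of 0.26, and all 8 estimates were still above 0 in each, where the medians of all genes were 0.03 and 0.01. In wildtype neurons the arsenite difference had a median of 0.09, with intervals from -0.29 to 0.53. There the 4 arsenite arrays were split in the same way for every subunit, with replicates 2 and 3 above replicates 1 and 4 in 8 of 8, as they were for 23 of the 59 chaperone genes and 15.6% of all genes. Any part of this split in the differences was not tested.

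**Figure D3:**
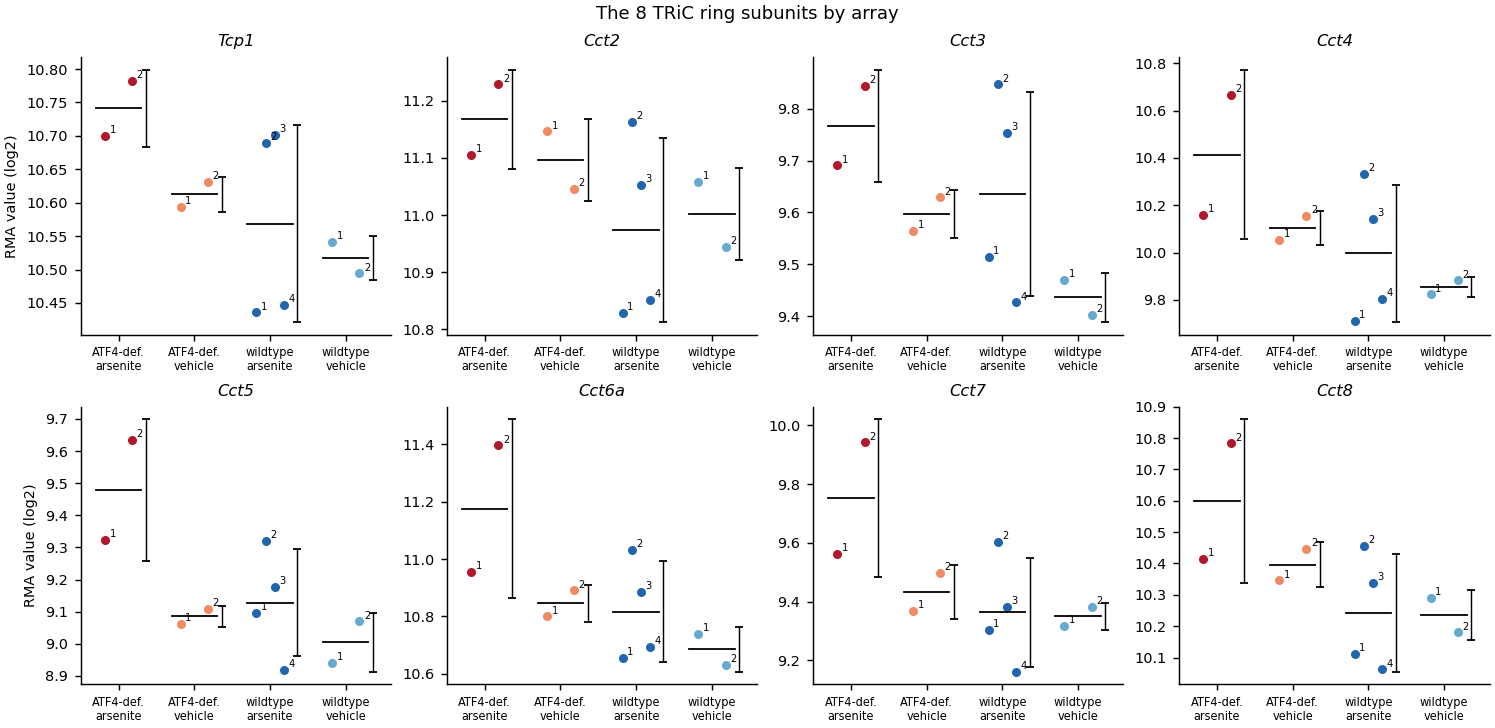
RMA values (log2) of the 8 TRiC ring subunits on each of the 10 arrays, by group. Points are arrays with their replicate number, long bars are group means and brackets are 1 SD (n = 2, or 4 for wildtype arsenite). ATF4-deficient arsenite replicate 2 is the highest array in every panel but Cct3, and wildtype arsenite replicates 2 and 3 lie above 1 and 4 in all 8.

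The remaining TRiC symbols read related genes outside the standard ring. Cct6b, a testis-enriched form of Cct6a, and Cct8l1, a Cct8-like gene, were below the dim level on average, and their genotype differences under arsenite were 0.11 and 0.36 (adjusted p = 0.634 and 0.208). Cct8l1 had 4.93 and 4.92 in ATF4-deficient arsenite arrays, 4.54 and 4.61 in ATF4-deficient vehicle arrays, 4.66, 4.67, 4.37 and 4.56 in wildtype arsenite arrays and 4.52 and 4.35 in wildtype vehicle arrays, so the ATF4-deficient arsenite pair was the highest.

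Prefoldin is the cytosolic jellyfish-shaped holder of new actin and tubulin chains. Of the 4 prefoldin subunits measured, Pfdn2 was the one that kept the genotypes apart under both treatments. It had 8.80 and 8.86 in ATF4-deficient against 8.54, 8.46, 8.61 and 8.40 in wildtype arrays under arsenite, and 8.67 and 8.75 against 8.51 and 8.44 under vehicle. All 4 ATF4-deficient arrays lay above all 6 wildtype arrays. For each treatment taken singly, ATF4-deficient arrays lay wholly above wildtype arrays for 10.6% of all genes under arsenite and 21.2% under vehicle. The share of all genes with all 4 above all 6 was not counted. Averaged over treatments the difference was 0.28 (SE 0.07, adjusted p = 0.0595), which did not pass here and passed when dim genes were left out (adjusted p = 0.0369) or arrays were quantile normalized (adjusted p = 0.0485). Pfdn1, Pfdn5 and Pfdn6 were at 0.08, -0.15 and -0.13 in the same comparison (adjusted p = 0.642, 0.512 and 0.525), so the median of the 4 was -0.02 beside 0.01 for all genes. Pfdn1 had 8.87 and 8.65 in ATF4-deficient against 8.88, 8.65, 8.60 and 8.57 in wildtype arrays under arsenite, and 8.73 and 8.73 against 8.64 and 8.65 under vehicle. Pfdn5 had 8.96 and 8.68 against 9.03, 8.85, 8.64 and 8.85 under arsenite, and 8.87 and 8.53 against 8.99 and 8.95 under vehicle, the vehicle pairs apart by -0.27 (adjusted p = 0.585). Pfdn6 had 8.57 and 8.49 against 8.63, 8.60, 8.75 and 8.58 under arsenite, and 8.93 and 8.47 against 8.81 and 8.87 under vehicle, with the arsenite groups apart by -0.11 (adjusted p = 0.734). With arsenite the 4 subunits had a median of 0.07 in ATF4-deficient and -0.05 in wildtype neurons.

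J-domain proteins made up 36 of the 59 genes, and limma called 0 of them in any comparison. Of all genes it called from 0% (interaction) to 3.07% (arsenite averaged over genotypes). With arsenite, 6 of the 36 had an unadjusted p under 0.05 in ATF4-deficient neurons (16.7%, against 12% of all genes). In wildtype neurons 4 did (11.1%, against 10.9%), and both shares were near those of all genes. Their median arsenite difference was 0.03 in ATF4-deficient and -0.04 in wildtype neurons. In class A, which keeps the zinc-binding region of the bacterial DnaJ, the cytosolic Dnaja2 was at 9.72 and 10.41 in ATF4-deficient arsenite arrays, 9.77 and 9.94 in ATF4-deficient vehicle arrays, 9.59 to 10.02 in the 4 wildtype arsenite arrays and 9.79 and 9.83 in wildtype vehicle arrays, so its groups overlapped in every comparison. Dnaja3 (Tid1), the mitochondrial partner of Hspa9, was at -0.13 with arsenite in ATF4-deficient and -0.03 in wildtype neurons (adjusted p = 0.641 and 0.943), and Dnaja4 at -0.08 and 0.02.

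In class B, Dnajb3 had the largest arsenite differences. This gene, known for its expression in testis, had 6.76 and 7.19 in ATF4-deficient arsenite arrays against 6.38 and 6.59 in ATF4-deficient vehicle arrays, and 6.79, 6.97, 6.78 and 6.47 in wildtype arsenite arrays against 6.38 and 6.35 in wildtype vehicle arrays. Arsenite arrays lay above vehicle arrays in both genotypes, and the vehicle arrays were under the dim level of 6.63. Averaged, it was at 0.44 (SE 0.11, adjusted p = 0.0628), and at 0.33 (adjusted p = 0.206) without ATF4-deficient arsenite replicate 2. Dnajb6, which keeps polyglutamine proteins from aggregating and carries the heat shock element printed above, was at 0.15 in ATF4-deficient and 0.00 in wildtype neurons with arsenite (adjusted p = 0.681 and 0.997), and 8.68 and 8.82 in ATF4-deficient against 8.55, 8.48, 8.38 and 8.43 in wildtype arsenite arrays. That genotype difference was 0.29 (SE 0.10, adjusted p = 0.309). Dnajb2, a neuronal form with ubiquitin-binding motifs, Dnajb5, and the endoplasmic reticulum membrane forms Dnajb12 and Dnajb14 had arsenite differences between -0.13 and 0.14 in either genotype. Dnajb12 was lower in ATF4-deficient vehicle arrays, at 8.49 and 8.54, than in wildtype vehicle arrays, at 8.59 and 8.80 (-0.19, adjusted p = 0.615).

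Class C holds the J-domain proteins with specialised partners. At the synapse, the auxilin gene Dnajc6 had 10.70 and 10.41 in ATF4-deficient arsenite arrays, 10.42 and 10.41 in ATF4-deficient vehicle arrays, 10.65, 10.24, 10.05 and 10.50 in wildtype arsenite arrays and 10.51 and 10.54 in wildtype vehicle arrays. The cysteine string protein gene Dnajc5 had 9.41 and 9.30, 9.41 and 9.36, 9.48, 9.41, 9.23 and 9.30, and 9.47 and 9.42 in the same order of groups. Neither separated by arsenite in either genotype (for Dnajc5 -0.03 in ATF4-deficient and -0.09 in wildtype, adjusted p = 0.941 and 0.805). Dnajc13, an endosomal coat regulator, was at 0.28 in ATF4-deficient and -0.11 in wildtype neurons with arsenite (adjusted p = 0.485 and 0.836). Under arsenite its 9.43 and 9.72 in ATF4-deficient arrays lay above the 9.19, 9.37, 9.24 and 9.30 in wildtype arrays, by 0.30 (SE 0.12, adjusted p = 0.367). Without ATF4-deficient arsenite replicate 2 this genotype difference was 0.15 and the arsenite difference in ATF4-deficient neurons was 0.13 (adjusted p = 0.838 and 0.911).

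Among those tied to translation and to Hsp90, Dnajc7, which binds both Hsp70 and Hsp90, had 9.95 and 10.23 in ATF4-deficient arsenite arrays against 9.79 and 9.67 in ATF4-deficient vehicle arrays, and 9.73, 9.85, 9.79 and 9.67 in wildtype arsenite arrays against 9.61 and 9.64 in wildtype vehicle arrays. Every arsenite array was above the vehicle arrays of its genotype, with an averaged difference of 0.25 (SE 0.08, adjusted p = 0.112). Dnajc2, which joins Hspa14 at the ribosome, had the largest standard errors of the set. It was at 8.71 and 9.66 in ATF4-deficient arsenite arrays, 8.68 and 8.85 in ATF4-deficient vehicle arrays, 8.43, 9.10, 9.05 and 8.57 in wildtype arsenite arrays and 8.54 and 8.67 in wildtype vehicle arrays. Its genotype difference under arsenite of 0.40 (SE 0.24, adjusted p = 0.55) had its high value on 1 array, ATF4-deficient arsenite replicate 2, and without that array it was -0.07 (adjusted p = 0.994).

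The lower side of the arsenite differences was led by other class C genes. Dnajc30, a mitochondrial inner membrane protein, had 7.60 and 7.43 in ATF4-deficient arsenite arrays against 7.89 and 7.64 in ATF4-deficient vehicle arrays, and 7.55, 7.70, 7.66 and 7.75 in wildtype arsenite arrays against 7.95 and 7.94 in wildtype vehicle arrays. Dnajc27, which joins a J domain to a Rab-like GTPase, had 8.28 and 8.24 against 8.35 and 8.42 in ATF4-deficient arrays and 8.34, 8.14, 8.15 and 8.22 against 8.44 and 8.55 in wildtype arrays, arsenite before vehicle. Both were lower on every arsenite array than on the vehicle arrays of the same genotype, and neither averaged difference passed (Dnajc30 -0.26, SE 0.08, adjusted p = 0.0937, and Dnajc27 -0.20, SE 0.07, adjusted p = 0.145). Dnajc5g, a testis-enriched relative of Dnajc5, had the lowest estimate of the set, -0.61 with arsenite in ATF4-deficient neurons (SE 0.15, adjusted p = 0.0939), and its values of 5.85 and 5.73 against 6.37 and 6.44 were all below the dim level. Under arsenite it was also at -0.60 between genotypes (adjusted p = 0.101), with 6.21 to 6.69 in the 4 wildtype arsenite arrays. Its relative Dnajc5b, likewise dim, had 6.58 and 6.44 in ATF4-deficient against 6.13 and 6.38 in wildtype vehicle arrays (0.26, adjusted p = 0.56).

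Dnajc10, the disulfide reductase ERdj5 of the endoplasmic reticulum, had arsenite arrays above vehicle arrays in ATF4-deficient neurons and below them in wildtype neurons. It had 9.44 and 9.54 in ATF4-deficient arsenite arrays against 9.21 and 9.31 in ATF4-deficient vehicle arrays, and 9.22, 9.30, 9.26 and 9.16 in wildtype arsenite arrays against 9.40 and 9.39 in wildtype vehicle arrays. The difference between the responses was 0.39 (SE 0.13, limma interaction, adjusted p = 0.753), with an arsenite difference of 0.22 in ATF4-deficient and -0.16 in wildtype neurons (adjusted p = 0.375 and 0.516). Dnajc4 had 7.98 and 7.69 in ATF4-deficient against 8.14 and 8.11 in wildtype vehicle arrays, and 7.92 and 7.89 against 7.94, 7.82, 7.93 and 7.98 in arsenite arrays. Its genotype difference under vehicle, -0.29 (SE 0.11, adjusted p = 0.348), was the lowest estimate of the set there, and the arsenite groups overlapped. Dnajc24, which takes part in the diphthamide modification of an elongation factor, had 6.38 and 6.32 in ATF4-deficient arsenite against 5.93 and 6.02 in ATF4-deficient vehicle arrays (0.38, adjusted p = 0.29), all below the dim level. Over the 25 class C genes the arsenite difference was above 0 for 17 in ATF4-deficient and 7 in wildtype neurons, with medians of 0.04 and -0.07, beside -0.01 and -0.02 for all genes. Without ATF4-deficient arsenite replicate 2 it was above 0 for 14 in ATF4-deficient neurons, with a median of 0.02.

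**Figure D4:**
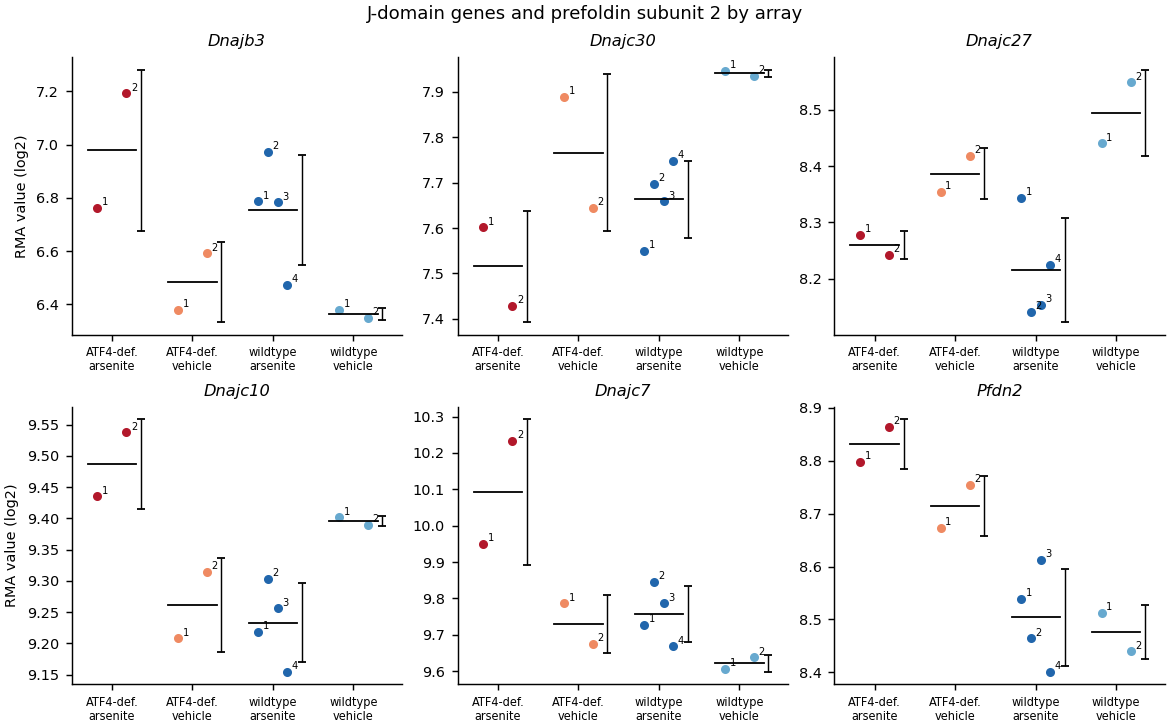
RMA values (log2) of Dnajb3, Dnajc30, Dnajc27, Dnajc10, Dnajc7 and Pfdn2 on each of the 10 arrays, by group. Points are arrays with their replicate number, long bars are group means and brackets are 1 SD (n = 2, or 4 for wildtype arsenite). Dnajc10 is higher with arsenite in ATF4-deficient and lower with arsenite in wildtype neurons, and Pfdn2 is higher on all 4 ATF4-deficient arrays than on the 6 wildtype arrays.

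The genotype comparisons set ATF4-deficient beside wildtype neurons under each treatment. Under arsenite limma called 0 of 59, against 0.343% of all genes. There 42 of the 59 estimates were higher in ATF4-deficient neurons (71.2%, against 54.3% of all genes), with a median of 0.13 beside 0.02, and 14 had an unadjusted p under 0.05 (23.7%, against 12.1%). Under vehicle limma called 0, against 0.433% of all genes, with 35 estimates higher (59.3%, against 51.1%), a median of 0.04 beside 0.00, and 2 with an unadjusted p under 0.05 (3.39%, against 10.9%). Among genes above the dim level, the shares with an unadjusted p under 0.05 were 23.1% of the members and 14.9% of all genes under arsenite. Under vehicle they were 3.85% and 13%. Arrays did not overlap upward for 8 genes under arsenite and 16 under vehicle, against 10.6% and 21.2% of all genes, and downward for 2 and 10, against 7.95% and 21.4%.

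Averaged over treatments 0 of 59 passed, against 1.82% of all genes, 40 estimates were higher in ATF4-deficient neurons (67.8%, against 54.6%), and 12 had an unadjusted p under 0.05 (20.3%, against 16.3%). Among genes above the dim level that last share was lower for the members, at 17.3%, than for all genes, at 20.2%. The interaction, which is the arsenite difference in ATF4-deficient neurons minus that in wildtype neurons, gave 0 calls among the 59 and 0% of all genes. Its estimates were above 0 for 47 of the 59 (79.7%, against 54.5% of all genes), and 2 had an unadjusted p under 0.05 (Dnajc10 and Dnajc5g, 3.39%, against 6%). Among genes above the dim level, estimates were above 0 for 84.6% of the members and 61% of all genes, with medians of 0.11 and 0.05. Without ATF4-deficient arsenite replicate 2 the interaction was above 0 for 37, the median over the 59 was 0.05 in place of 0.11 (0.04 and 0.02 for all genes), and the median genotype difference under arsenite was 0.06 in place of 0.13.

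**Figure D5:**
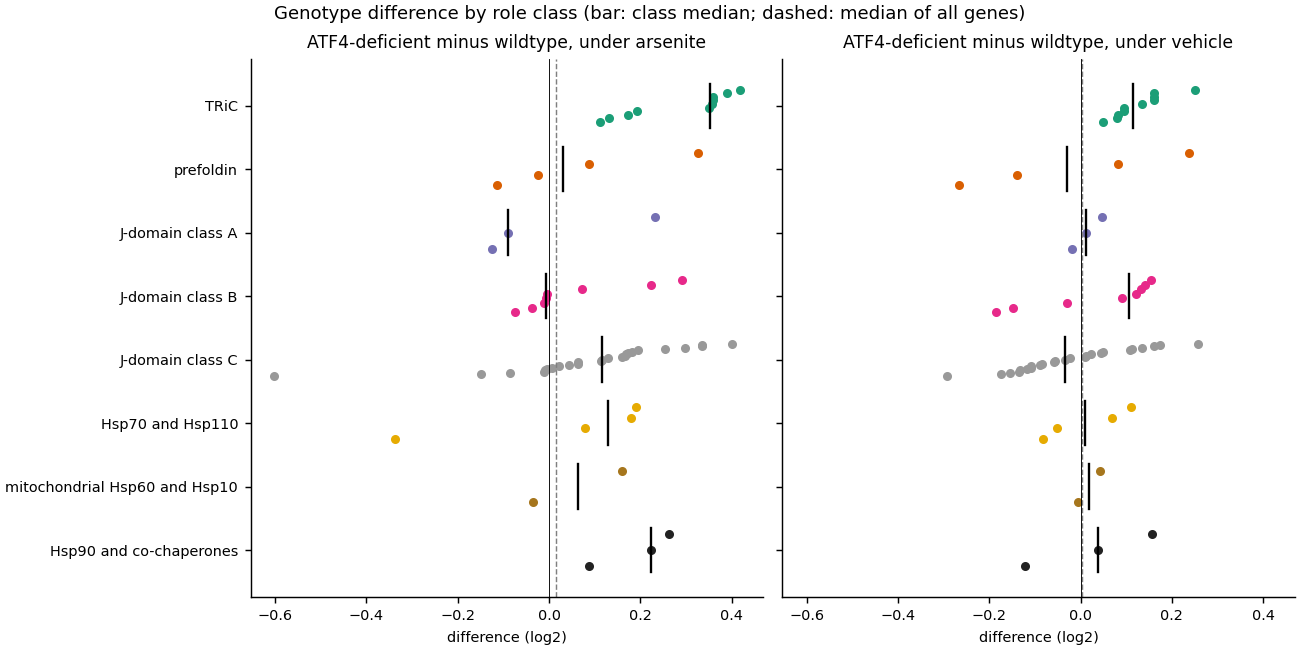
ATF4-deficient minus wildtype difference (log2, horizontal axis) of each gene by role class, under arsenite (left) and under vehicle (right). Points are genes, bars are class medians and the dashed line is the median of all genes. The TRiC class lies to the right in both panels, with medians of 0.35 and 0.12 over its 10 genes, and J-domain class C spans 0.

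Beside the genotype differences, markers of other cells differed in these bulk samples, in which fewer cells of a type and less RNA per cell cannot be told apart. Of 10 astrocyte markers, 5 (Aldoc, Aqp4, Gfap, Slc1a3 and Sox9) fell in ATF4-deficient neurons averaged over treatments, and the median of the 10 was -0.66. Their mean level was 7.40 and 7.06 in ATF4-deficient arsenite arrays, 7.47 and 7.14 in ATF4-deficient vehicle arrays, 7.50 to 8.01 in wildtype arsenite arrays and 8.07 and 8.31 in wildtype vehicle arrays. With arsenite in wildtype neurons all 10 estimates were lower, with a median of -0.40 and 0 called (6 at an unadjusted p under 0.05). In the arsenite comparison averaged over genotypes, in which Hspa8 and Stip1 rose, 1 of the 10 astrocyte markers fell (Gfap, -0.37, adjusted p = 0.0403) and 1 of 8 oligodendrocyte lineage markers fell (Pdgfra, -0.59, adjusted p = 0.0152). Pdgfra also fell with arsenite in wildtype neurons (-0.76, adjusted p = 0.0464). The mean level of the 8 oligodendrocyte lineage markers was 7.19 and 7.02 in ATF4-deficient arsenite arrays, 7.32 and 7.28 in ATF4-deficient vehicle arrays, 7.31 to 7.53 in wildtype arsenite arrays and 7.61 and 7.75 in wildtype vehicle arrays. Microglia markers averaged 6.90 to 7.24 on all arrays, and 0 of 10 passed in any comparison, with at most 1 at an unadjusted p under 0.05. In ATF4-deficient relative to wildtype neurons averaged over treatments, 3 of 8 oligodendrocyte lineage markers (Olig1, Olig2 and Pdgfra), 2 of 8 progenitor markers (Hes5 and Sox2) and 1 of 6 inhibitory neuron markers (Dlx2) fell, while 1 of 8 endothelial and mural markers (Rgs5) rose. Of 10 neuron markers Nefl rose and Tubb3 fell. The part of these markers in the chaperone values was not tested.

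The genes around this machinery were read from lists chosen with earlier results of these data known. Of 15 inducible heat shock and endoplasmic reticulum chaperone genes, Dnajb4, a class B protein outside the set described here, rose with arsenite in ATF4-deficient neurons (0.47, SE 0.09, adjusted p = 0.0396) and in wildtype neurons (0.43, SE 0.08, adjusted p = 0.0464). Hspa1a, the inducible Hsp70, rose in ATF4-deficient neurons, with 7.88 and 8.29 in arsenite arrays against 6.96 and 7.09 in vehicle arrays (1.06, SE 0.20, adjusted p = 0.0359), and its wildtype difference was 0.45 (adjusted p = 0.354). The endoplasmic reticulum genes Hspa5 (0.47), Dnajb9 (0.51) and Dnajc3 (0.59) rose in ATF4-deficient relative to wildtype neurons averaged over treatments (adjusted p = 0.0123, 0.0144 and 0.0163), with 12 of the 15 not past. Hspa5 (BiP) is the Hsp70 of the endoplasmic reticulum, and Dnajb9 and Dnajc3 are its J-domain partners.

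Of 21 Hsp70 and Hsp90 co-chaperone genes, 0 rose and 2 fell with arsenite averaged over genotypes, the nucleotide exchange factor Hspbp1 (-0.33, SE 0.08, adjusted p = 0.0477) and Tomm34 (-0.27, SE 0.06, adjusted p = 0.0465), which binds Hsp70 and Hsp90 on the way to mitochondria. Of 11 cytoskeletal genes whose products TRiC folds, Tubb3, the neuronal beta-tubulin, fell in ATF4-deficient neurons averaged over treatments (-0.44, SE 0.07, adjusted p = 0.0123). Tubb3 was at 10.78 and 10.68 in ATF4-deficient against 11.22, 11.25, 11.08 and 11.19 in wildtype arrays under arsenite, and 11.07 and 10.85 against 11.40 and 11.40 under vehicle, so each ATF4-deficient array was lower than the wildtype arrays of its treatment. Of 10 partners of TRiC and prefoldin, 11 partners of the synaptic J-domain proteins and 16 genes of mitochondrial protein import and quality control, 0 passed in any of the 7 comparisons, with at most 3 of the first list, 2 of the second and 6 of the third at an unadjusted p under 0.05. The 6 mitochondrial genes were those for arsenite averaged over genotypes, where 16.1% of all genes had such a p. They include Hspa9 and Hspd1, members of the set whose values are given above, so they are not separate from it. Of 12 known ATF4 target genes including Atf4, 8 fell in ATF4-deficient neurons under arsenite, with a median of -1.11.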

How the data were processed

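The members and lists were chosen with earlier results of these data known. The authors deposited 1 table of log2 expression values for 41345 probe sets on 10 arrays, which are robust multiarray average signals from Partek 6.6, per the submitters' processing notes. That method gives all arrays like distributions, which hides any shift common to nearly all RNAs. Scanner files were not used here. The labels' protocols give Trizol extraction and labelling of 100 ng of RNA with the Affymetrix WT PLUS kit. The sources used here name no genome build for the array, and promoter coordinates are those of RefSeq.

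Of the probe sets, 23521 had 1 gene symbol, 1814 several and 16010 none listed. The brightest probe set over all arrays stood for a gene, which left 22180 genes, and no gene was removed for low signal. An equal value on over 1 array was found for 20 of the members (33.9%) and 35.3% of all genes. Within a group such repeats lower the spread, and their source was not tested. Groups came from the sample titles. One limma model (limma 3.58.1, R 4.3.3) held a mean per group over all 10 arrays (6 residual degrees of freedom, prior 5.08) and gave 7 contrasts, with two-sided p-values adjusted by Benjamini-Hochberg over all 22180 genes and a threshold of 0.05. Intervals are 95%. The fit was run on simulated data with independent noise for each gene and no effect shared by the genes of an array. That run therefore says nothing of arrays that stand apart. Named genes were all members past the threshold, the 5 largest rises and 5 largest falls among members whose groups did not overlap, the brightest of each class, and the TRiC and prefoldin complexes. Genes described beyond these were chosen for their known role after their values were seen. Alternatives were averaged probe sets, equal medians, quantile normalization, a filter on dim genes, array weights, trended robust moderation, the compared groups alone, a replicate block and each array left out. The labels do not say whether the replicate numbers pair the samples, so the main fit did not pair them. The number of arrays limits the precision.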

Additional observations from a re-analysis of the deposited data

Results flagged for a closer look

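In the wildtype arsenite group of 4 arrays, 1 array lay far from the rest for 2 of the 59 genes. Dnajc15 was at 7.42 on replicate 1 against 7.29 to 7.30 on the others, a gap of 0.908 of the group's range, and Dnajb7 was at 4.21 on replicate 4 against 4.07 to 4.09, a gap of 0.832. Chance gives such a gap in about 1 of 20 groups, so 2 of 59 is not above that rate. Dnajb7 was below the dim level. For Dnajc10 every arsenite array was above the vehicle arrays in ATF4-deficient neurons and below them in wildtype neurons, and the difference between the responses was 0.39 (0.3871 before rounding, SE 0.13, limma interaction, adjusted p = 0.753). Of all genes, 18.1% were above in ATF4-deficient neurons and 12.7% below in wildtype neurons, each taken singly.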

How the results depend on the processing

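Of the alternatives tried, 18 in number and 10 of them leaving out 1 array, 0 turned the direction of a difference that passed. The count of members past the threshold for arsenite averaged over genotypes was 2 and became 1 with averaged probe sets (Stip1), 1 with equal medians (Hspa8), 4 with the filter on dim genes (Dnajb3 and Hspa9 added, Dnajb3 being kept by its arsenite arrays, since its vehicle means, 6.48 in ATF4-deficient and 6.36 in wildtype neurons, are under the dim level, so its call there supports nothing) and 0 to 4 with an array left out (4, with Dnajb3, Dnajc7 and Hspd1 beside Stip1, without ATF4-deficient arsenite replicate 1). It was 0 without wildtype vehicle replicates 1 or 2, wildtype arsenite replicates 2 or 3, either ATF4-deficient vehicle array, or ATF4-deficient arsenite replicate 2. For genotype averaged over treatments the count was 0 and became 1 (Pfdn2) with quantile normalization and 1 with the filter. For arsenite in ATF4-deficient neurons it was 0 and ran from 0 to 1 with an array left out, the 1 being Dnajc5g without wildtype arsenite replicate 3 (adjusted p = 0.0463). The cause of these changes was not tested. Of 12 correlations between same-numbered deviations, 5 were above 0.1 (range -0.06 to 0.40). In a group of 2 arrays the deviations mirror each other, so some of the 12 are repeats and their count cannot decide pairing. The labels do not give pairing, and the main fit took none. Replicates 3 and 4 exist only in wildtype arsenite, so with the replicate block the mean of that group rested on replicates 1 and 2 alone. With that block the count for arsenite averaged over genotypes was 3 (Dnajb3, Hspa9 and Stip1), with Hspa8 at 0.28 (limma, adjusted p = 0.0598). The median genotype difference under arsenite over the 59 genes was 0.07 with that block and 0.06 without ATF4-deficient arsenite replicate 2, in place of 0.13. The other Hspa8 probe sets were tried after seeing the data.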
